A study of Homo sapiens with 4 samples.

Results

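The genes described here are 39 genes tied to a mesenchymal or invasive state: factors that drive the epithelial-mesenchymal transition (EMT), structural and matrix genes of mesenchymal cells, and transcripts typical of PC-3 cells. Every probe set annotated to exactly one of these genes was taken, which gave 156 probe sets for the 39 genes, out of 44988 single-gene probe sets for 18132 genes on the array. The arrays were hybridised with RNA from LNCaP (LNCAP in the labels), a human prostate cancer line with luminal epithelial character that responds to androgen. PC-3, a human prostate cancer line that grows without androgen and is more mesenchymal and invasive, supplied the exosomes, which are small vesicles that cells release. The 4 arrays fall into LNCaP cells given PC-3 exosomes (2 arrays) and LNCaP cells that got the buffer PBS instead (2 arrays). Both groups are the same line, grown in RPMI-1640 with fetal bovine serum. The labels give the PBS arrays' agent as none, and the dose, the time of exposure and the source of the exosomes beyond PC-3 were not given in the sources used here. Nothing in the labels tells whether arrays of one group were grown as separate cultures, and the p-values measure only the spread between these arrays, which may be technical.

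In an EMT, transcription factors of the SNAIL, TWIST and ZEB families repress the genes of epithelial junctions, above all the cadherin CDH1, and cells gain the intermediate filament vimentin, N-cadherin and secreted matrix. Cancer cells in such a state tend to carry more of the surface receptors and proteases used in invasion, and caveolins, annexin A1, galectin-1 and CD44 are widely used to tell the PC-3 type of prostate cancer cell from the LNCaP type. LNCaP is known for low levels of most of these transcripts. The comparison asks whether LNCaP cells show more of them after exposure to vesicles from PC-3.

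None of the 39 genes passed the test for a rise or a fall. In a limma fit over all 18132 genes, 0 of the 39 had an adjusted p under 0.05, against 0.888% of all genes, and the smallest adjusted p was 0.334, for LGALS1. At an unadjusted p under 0.05, 0 of the 39 were higher and 5 were lower with exosomes, where 5.76% of all genes were higher and 5.16% lower by the same rule. The log2 fold changes, on the scale of the intensity plus 1, ran from -0.22 to 0.09 with a median of -0.07, beside a median of -0.01 over all genes. Of the 39, 31 lay below 0 (79.5%), as did 56.0% of all genes. When arrays were centred on the poly-A spike-ins, which are foreign RNAs put into the sample, every log2 fold change was lower by 0.14, so that all 39 lay below 0, as did 92.3% of all genes. Whether a lower level means fewer cells with the transcript or less of it per cell cannot be told apart in bulk RNA. Both exosome arrays lay below both PBS arrays in 10 of the 39 genes, and in 21.9% of all genes. Both exosome arrays lay above both PBS arrays in 0 of the 39, and in 17.8% of all genes. Of the 34 members under the median level of all genes, 76.5% lay below 0, as did 63.0% of the 9066 genes under it. Of those 9066, both exosome arrays were above in 1080 and below in 2168. At an unadjusted p under 0.05, 246 of them were higher and 439 lower. The 5 members at or above that level all lay below 0, as did 49.0% of such genes. The fit's 95% intervals bound how large a rise could have been missed on this scale, for the probe set with the highest mean in each gene. The upper end there was under 1.5-fold for all 39 genes, and the highest was 1.26-fold, for PLAU. Some other probe sets of the same genes had higher upper ends, such as 0.46 for a CD44 and 0.43 for a ZEB1 probe set on the log2 scale, against 0.33 for PLAU.

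**Figure D1:**
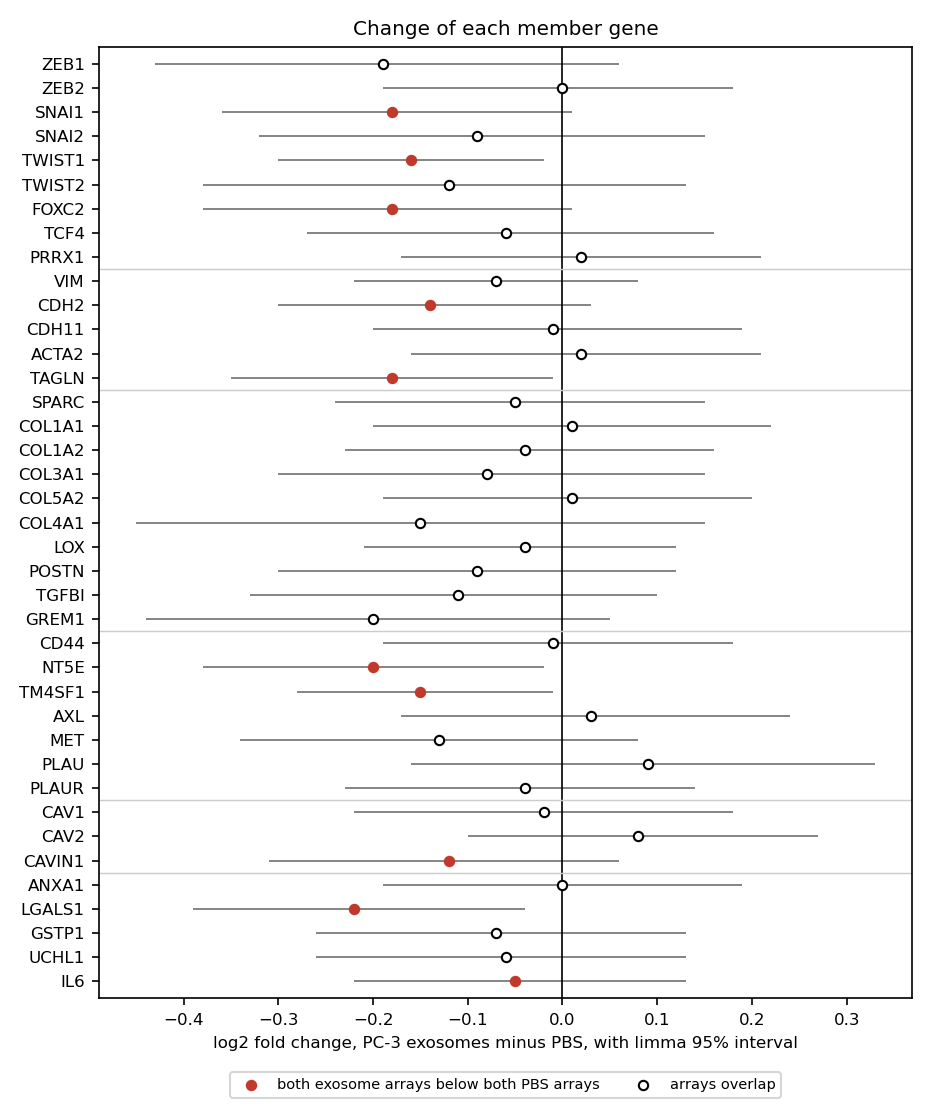
Log2 fold change of each of the 39 genes, PC-3 exosomes minus PBS (x axis), with limma's 95% interval as a bar; grey lines part the groups by role. Filled points mark the 10 genes whose exosome arrays both lie below both PBS arrays, all points lie between -0.22 and 0.09, and 5 bars lie wholly below 0.

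Most of these probe sets were dim. The array carries 23 background control probe sets, named GC03 to GC25 after the number of G and C bases in their probes, and their intensities rise with that number. They ran from 10.5 to 3694 and from 10.6 to 3566 on the exosome arrays, and from 10.4 to 3749.9 and from 10.5 to 3632 on the PBS arrays, with medians of 19.4 and 18.7, and of 19.5 and 19.3. A probe set of unknown base composition has no exact background of its own here, so the number of controls it exceeds describes its brightness and is no detection call, nor a ranking of transcript amounts. Exceeding at least 95% of the controls (22 of 23) on all 4 arrays was reached by 0 of the 156 member probe sets and by 11.1% of the 49293 probe sets that are no controls. Exceeding at least 75% (18 of 23) on all 4 arrays, a level chosen after the values were seen, was reached by 12 of the 156 (7.69%) and by 42.4% of those 49293. These 12 belonged to TWIST1, TM4SF1, VIM, LOX, CDH2, TAGLN, COL5A2 and SPARC. Another 27 of the 156 (17.3%) exceeded under 50% of the controls on all 4 arrays, as did 6.39% of the 49293. Background that is shared by both groups pulls a fold change towards 1, by an amount unknown here. The bounds above therefore apply to the deposited intensities and not to the transcripts. This limit covers the 34 genes whose level lay under the median of all genes, an intensity of 195. The limit also covers the brighter TWIST1, TM4SF1, VIM, LOX and CDH2, as the base composition of their probes, and so their background, is unknown here. These genes exceeded from 18 of the 23 controls (CDH2) to 22 (TWIST1, on its highest arrays).

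**Figure D2:**
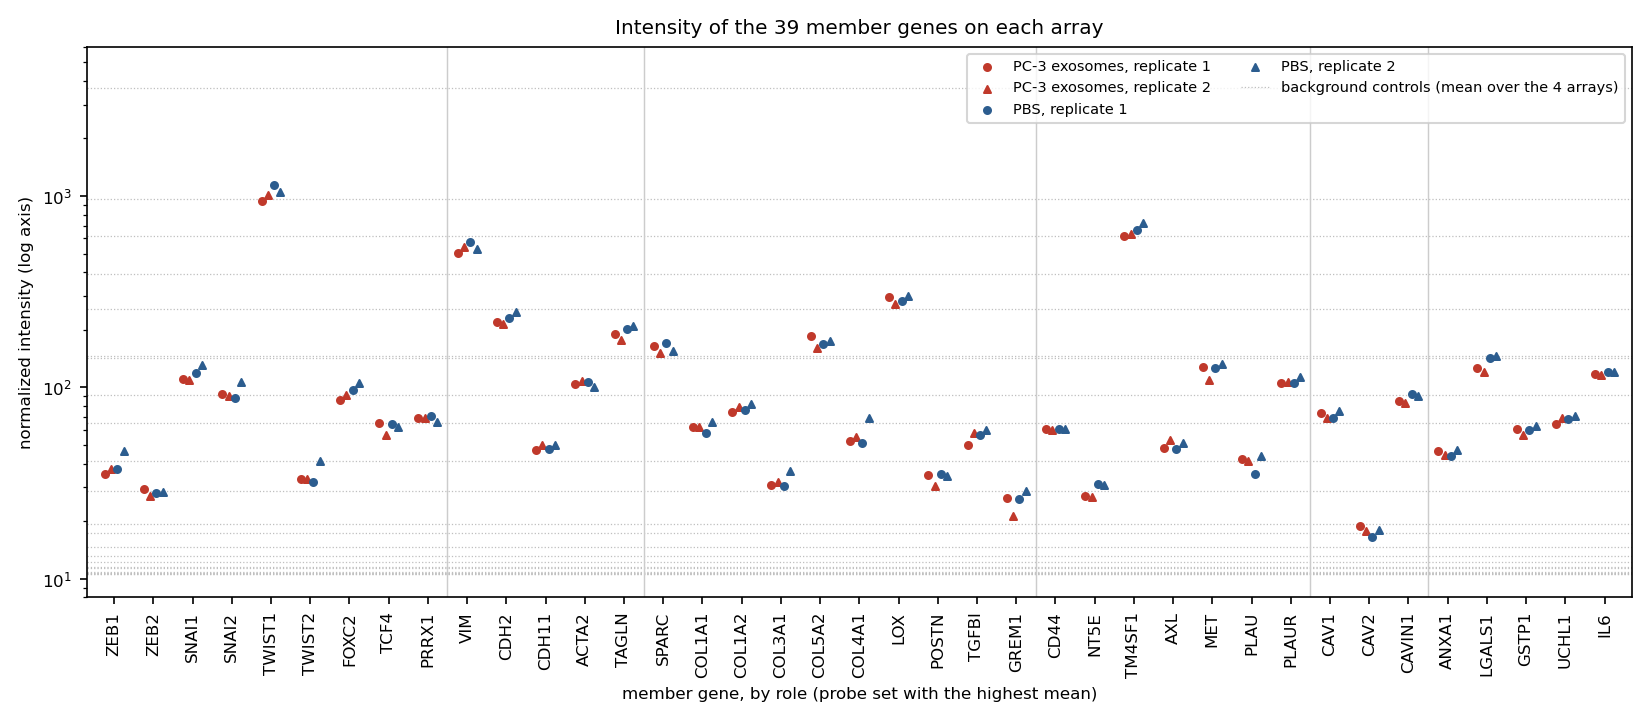
Normalized intensity (log y axis) of the probe set standing for each of the 39 genes (x axis, by role), with 1 point per array; dotted lines are the 23 background controls, averaged over the 4 arrays. TWIST1, TM4SF1, VIM, LOX and CDH2 are the 5 genes above 195 on average, and the red points of PC-3 exosomes and the blue points of PBS lie close together in every gene.

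The arrays resembled one another and the cells carried the markers of their label. Pearson's r between arrays over the 18132 genes, which are not independent replicates, was 0.998 to 0.999, and the SD of the log2 difference was 0.113 within the exosome group, 0.132 within the PBS group and 0.134 to 0.157 between them. Of 7 measured genes of LNCaP and luminal prostate, 5 exceeded at least 22 of the 23 controls on every array, among them KLK3, which encodes PSA, at 13974 and 14046 with exosomes, against 14526 and 13847 with PBS. For markers of fibroblasts, neurons and glia, endothelium and leukocytes, 0 of 10, 0 of 9, 0 of 8 and 0 of 7 reached that level. Neural markers were included because the labels' extraction text speaks of brain tissue, and MBP, a myelin protein, was the brightest of them at 867 and 868 with exosomes, against 764 and 764 with PBS. The summed intensity of the fibroblast markers, 3 of which are among the 39, was 421 and 415 with exosomes, against 401 and 439 with PBS.

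Among the EMT transcription factors, 0 of 9 passed the test, and 8 of the 9 lay below 0 with a median log2 fold change of -0.12. TWIST1, a basic helix-loop-helix factor that represses CDH1, had intensities of 945 and 1011 with exosomes, against 1138 and 1043 with PBS. It exceeded 21 or 22 of the 23 controls, more than any other member, and the exosome arrays lay below the PBS arrays by a narrow margin. Its log2 fold change was -0.16 (SE 0.061, limma adjusted p = 0.39, unadjusted p = 0.0313). With poly-A spike-in centring 326 of all 18132 genes passed the threshold as lower and 60 as higher. The mean log2 level of the spike-ins was 6.94 and 7.02 with exosomes, against 6.90 and 6.77 with PBS, so the PBS arrays also differed from each other. The prior degrees of freedom were infinite in that setting, so each gene took its variance from the trend over all genes. TWIST1 was among the 326 lower genes, at -0.30 with a limma adjusted p of 0.029. Over its other alternatives the adjusted p reached 0.82. SNAI1, which encodes SNAIL, had 110.3 and 109.6 with exosomes, against 119 and 130.2 with PBS. FOXC2, a forkhead factor of mesoderm, had 85.8 and 91.7 with exosomes, against 96.5 and 105 with PBS. The groups did not overlap in SNAI1 and FOXC2 either, at log2 fold changes of -0.18 (adjusted p = 0.498) and -0.18 (adjusted p = 0.495) by limma.

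SNAI2, which encodes SLUG, had 92.0 and 90.3 with exosomes, against 87.6 and 107 with PBS. The PBS arrays lay on both sides of the exosome arrays, and the log2 fold change of -0.09 became 0.06 without PBS replicate 2. ZEB1, a zinc finger repressor of CDH1, had 35.2 and 37.6 with exosomes, against 37.3 and 46.3 with PBS. Its value of -0.19 also rested on PBS replicate 2, being -0.03 without that array and -0.34 without PBS replicate 1. The 7 probe sets of ZEB1 ran from -0.19 to 0.20, and their mean gave 0.00 on that scale. ZEB2, TWIST2, TCF4 (a partner of the TWIST proteins, not the Wnt factor of a similar name) and PRRX1, a homeobox factor of limb and craniofacial mesenchyme, had fold changes between -0.12 and 0.02, and each overlapped between the groups.

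Among the mesenchymal cytoskeleton and cadherin genes 0 of 5 passed the test. VIM, whose protein forms the intermediate filaments of mesenchymal cells, had 506 and 543 with exosomes, against 574 and 528 with PBS. The arrays overlapped, and the 95% interval of its log2 fold change ran from -0.22 to 0.08, so a rise in intensity of more than 1.06-fold lies outside it. The other VIM probe set had 467 and 514 with exosomes, against 492 and 487 with PBS, and its interval ran from -0.16 to 0.16. CDH2, which encodes N-cadherin, had 219.9 and 215 with exosomes, against 231 and 248 with PBS on its brighter probe set. Both exosome arrays were the lower ones, at -0.14 (SE 0.072, limma adjusted p = 0.543), while the other CDH2 probe set, near an intensity of 22 to 25, lay at 0.08. TAGLN, an actin-binding protein of smooth muscle, had 189 and 176 with exosomes, against 203 and 209.8 with PBS. Its log2 fold change was -0.18 (adjusted p = 0.437), and -0.05 as the mean of its 6 probe sets. ACTA2, smooth muscle actin, and CDH11, a cadherin of mesenchymal cells, had 0.02 and -0.01, with overlapping arrays.

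Matrix genes gave 0 of 10 past the test, and the arrays overlapped in all 10. LOX, which crosslinks collagen and elastin, had 295 and 272 with exosomes, against 284 and 299 with PBS. COL5A2, a fibrillar collagen chain, had 185 and 160.4 with exosomes, against 169 and 174 with PBS, so that the exosome arrays were both the highest and the lowest. SPARC, a collagen-binding glycoprotein, had 164 and 151 with exosomes, against 171 and 154 with PBS. The log2 fold changes of these 3 genes were -0.04, 0.01 and -0.05, with an SE of 0.072 to 0.088. GREM1, a secreted antagonist of BMPs, had 26.4 and 21.3 with exosomes, against 26.0 and 28.6 with PBS, above 12 or 13 of the 23 controls. Its -0.20 was the lowest of the group and moved between -0.34 and -0.05 as single arrays were left out. COL1A1, COL1A2 and COL3A1, the main collagen chains of fibroblasts, ran from 30.4 to 81.5 over the 4 arrays and had 0.01, -0.04 and -0.08. COL4A1, a basement membrane chain, POSTN, a matricellular protein, and TGFBI, a matrix protein induced by TGF-beta, had -0.15, -0.09 and -0.11.

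Of the PC-3-type surface receptors and proteases 0 of 7 passed. TM4SF1, a 4-pass membrane protein of invasive and endothelial cells, had 618 and 630.3 with exosomes, against 666 and 719.6 with PBS. These exosome arrays were both lower, at -0.15 (SE 0.06, limma adjusted p = 0.401). The other 3 TM4SF1 probe sets, at intensities of 142 to 176, had 0.11, -0.02 and 0.00, and over the alternatives the gene's adjusted p lay between 0.0501 and 0.971. NT5E, the ectonucleotidase CD73, had 27.2 and 26.6 with exosomes, against 31.1 and 31.0 with PBS. The arrays of each group were close and the groups apart, and the log2 fold change of -0.20 had a limma adjusted p of 0.395. These values exceeded 12 or 13 of the 23 controls. The other 2 NT5E probe sets had -0.01 and 0.04.

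CD44, the hyaluronan receptor and a marker of PC-3 against LNCaP, had 60.8 and 59.7 with exosomes, against 60.7 and 60.4 with PBS. The 4 arrays nearly coincided, and the interval of the log2 fold change ran from -0.19 to 0.18. Its 10 probe sets lay between -0.10 and 0.17. MET, the receptor of hepatocyte growth factor, had 128 and 109.7 with exosomes, against 126 and 133 with PBS. AXL, a receptor tyrosine kinase that binds GAS6, had 48.2 and 53.0 with exosomes, against 47.8 and 51.0 with PBS. Both genes overlapped between the groups, at -0.13 and 0.03. PLAU, the protease urokinase, and its receptor PLAUR had 0.09 and -0.04, and the value of PLAU, the highest of the 39, turned to -0.07 when PBS replicate 1 was left out and stood at 0.24 when PBS replicate 2 was.

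Genes of caveolae, small pits of the cell membrane, gave 0 of 3 past the test. PC-3 is known for abundant CAV1 but lacks CAVIN1 and formed caveolae, and LNCaP is known for little CAV1. CAV1, their main coat protein, had 73.8 and 68.8 with exosomes, against 69.0 and 75.4 with PBS. The groups overlapped, and the interval of its log2 fold change ran from -0.22 to 0.18. A second CAV1 probe set holds the same values on all 4 arrays, so its 4 probe sets give 3 separate measurements, and 1 pair of CAV2 probe sets is likewise identical. CAV2, the partner of CAV1, had 18.9 and 17.8 with exosomes, against 16.6 and 17.9 with PBS, the only 1 of the 39 that stayed under 50% of the controls on every array. CAVIN1 shapes caveolae and is listed among the PC-3-type genes although PC-3 lacks it. It had 84.6 and 82.9 with exosomes, against 92.5 and 90 with PBS. The exosome arrays were the lower ones, at -0.12 (SE 0.081, limma adjusted p = 0.642).

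Among the remaining PC-3-type genes 0 of 5 passed. LGALS1, which encodes the secreted lectin galectin-1, had 126 and 121 with exosomes, against 143 and 145 with PBS. It has 1 probe set, the exosome arrays were both lower, and its log2 fold change of -0.22 (SE 0.077, limma adjusted p = 0.334, unadjusted p = 0.0212) was the lowest of the 39. With single arrays left out it stayed between -0.24 and -0.19. IL6, the inflammatory cytokine, had 118 and 116 with exosomes, against 121 and 121 with PBS, without overlap, at -0.05. ANXA1, a phospholipid-binding protein, and UCHL1, a deubiquitinase, had 0.00 and -0.06 with overlapping arrays.

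GSTP1, a glutathione S-transferase, is known to be silenced in LNCaP by methylation of CpG sites at its promoter, and to be active in PC-3. It had 60.5 and 56.3 with exosomes, against 60.0 and 62.5 with PBS, and its second probe set had 29.9 and 31.0 with exosomes, against 30.1 and 30.8 with PBS. The groups overlapped on both probe sets, at -0.07 and 0.00 on the log2 scale. Methylation was not measured here. The GSTP1 promoter is shown for its CpG sites, beside that of TM4SF1, one of the brighter members. Both are RefSeq windows of GRCh38.p14, 250 bases before to 50 after the gene's start, 5′ to 3′ on the gene's strand, at chr11:67583562-67583861 (plus strand) and chr3:149377600-149377899 (minus strand), with CpG sites in capitals.
GSTP1: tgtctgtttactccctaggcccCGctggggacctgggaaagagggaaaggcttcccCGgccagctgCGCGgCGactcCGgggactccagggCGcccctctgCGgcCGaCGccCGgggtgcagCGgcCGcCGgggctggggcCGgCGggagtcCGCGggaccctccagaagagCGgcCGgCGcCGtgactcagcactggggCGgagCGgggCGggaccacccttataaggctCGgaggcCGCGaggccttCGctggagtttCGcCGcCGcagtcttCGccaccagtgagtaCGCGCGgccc
TM4SF1: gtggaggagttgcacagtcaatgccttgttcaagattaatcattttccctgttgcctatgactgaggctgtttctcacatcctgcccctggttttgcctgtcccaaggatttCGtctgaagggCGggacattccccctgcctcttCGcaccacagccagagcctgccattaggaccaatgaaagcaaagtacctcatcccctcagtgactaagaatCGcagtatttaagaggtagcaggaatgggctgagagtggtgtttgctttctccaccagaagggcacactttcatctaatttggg
The GSTP1 window holds 36 CpG sites and the TM4SF1 window 4, and 12.7% and 75.5% of all 35116 RefSeq windows hold at least as many. The windows had a median of 14. Promoters were found for 27 of the 39 genes, in 52 windows, and ranged from 0 CpG sites at ANXA1 to 45 at COL4A1. The motif CACCTG, read on both strands, which SNAIL and ZEB factors are known to bind, was found in 6 of the 52 windows (11.5%) and in 20.6% of all windows. Such matches describe the letters only.

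Tested one by one over 49293 probe sets, 0 of the 156 passed the adjusted threshold, against 0.231% of all. At an unadjusted p under 0.05, 1 was higher and 5 were lower, and 8.81% of all probe sets were past it in either direction. The higher one was 1 of the 11 probe sets of TCF4, at 0.19 (limma adjusted p = 0.506), and the lower ones were those of LGALS1, TWIST1, NT5E and TM4SF1 named above and 1 of the 8 of SPARC, at -0.22 (adjusted p = 0.554). The 156 log2 fold changes ran from -0.22 to 0.20, with 63 above 0 and 93 below. Over all 49293 probe sets 22502 lay above 0 and 26788 below, and the medians were -0.017 for the 156 and -0.009 for all. With the mean of its probe sets for each gene, the median of the 39 genes was -0.03. In that setting 30 of the 39 lay below 0, as did 57.0% of all genes. Of the 34 genes with more than 1 probe set, 5 had all of them below 0, 2 had all above 0, and in the other 27 they lay on both sides. In 7 of the 39 genes, ZEB1, SPARC, COL1A2, TGFBI, TM4SF1, PLAUR and ANXA1, the probe set standing for the gene carries the suffix x, which marks probes that may also match other transcripts. In another 7, PRRX1, ACTA2, COL3A1, COL4A1, LOX, CAVIN1 and UCHL1, it carries the suffix s. Probe sequences were not checked for either suffix.

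**Figure D3:**
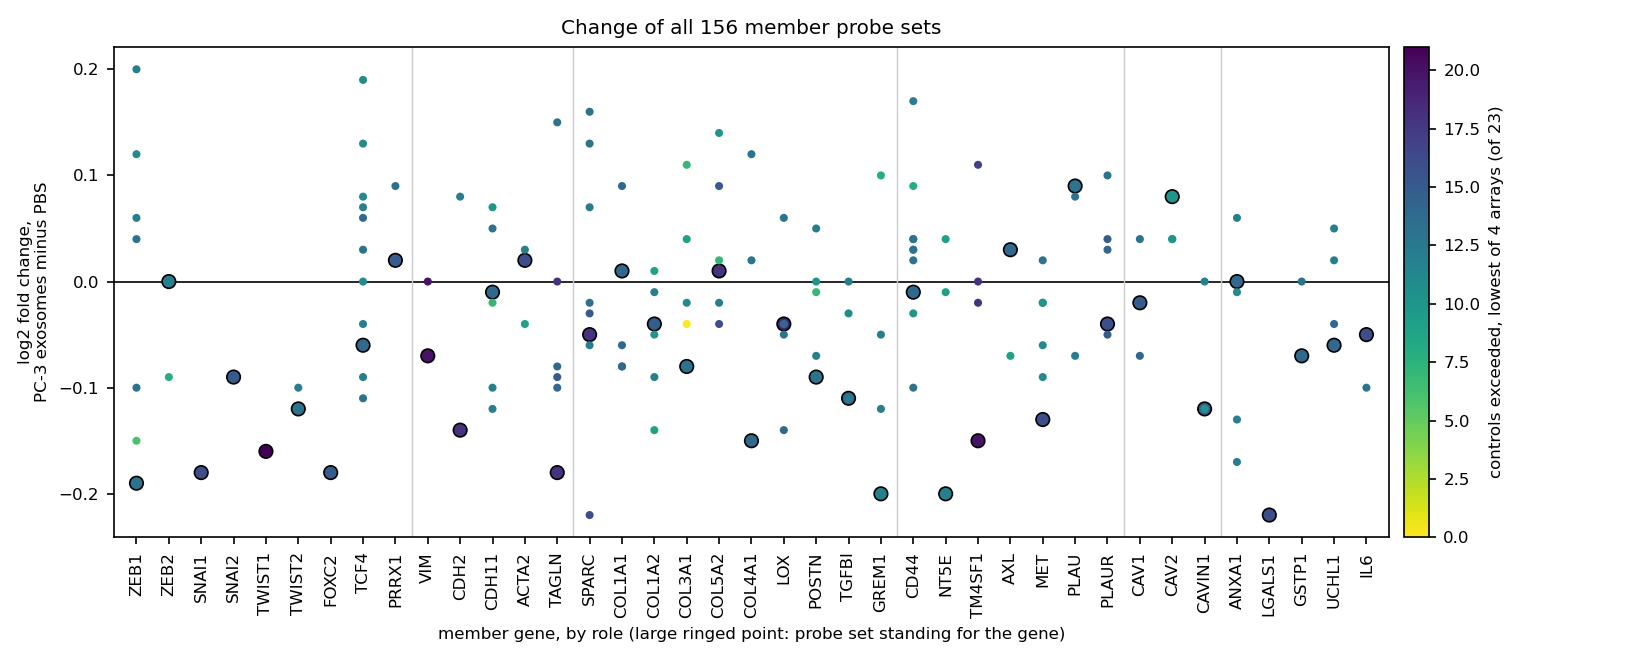
Log2 fold change, PC-3 exosomes minus PBS (y axis), of all 156 probe sets by gene (x axis, by role); colour gives the number of the 23 background controls exceeded on the lowest of the 4 arrays, and large ringed points are the probe sets standing for the genes. The points lie between -0.22 and 0.20, and in most genes with several probe sets they fall on both sides of 0.

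PBS replicate 2 was the highest of the 4 arrays in 24 of the 39 genes (61.5%), and in 29.0% of all genes. Among genes under the median level that share was 39.0%, and the median log2 fold change of those genes was -0.03, beside 0.00 for genes at or above it. Without PBS replicate 2 the median of the 39 was -0.03 and 24 lay below 0, as did 54.7% of all genes. In that setting 1 gene of the 39 was higher and 1 lower with an unadjusted p under 0.05, beside 4.78% and 5.37% of all genes. Without PBS replicate 1 it was -0.09 and 35 lay below 0, as did 53.3% of all genes, and 0 were higher and 8 lower at that p, beside 7.49% and 6.24% of all genes. The medians were -0.10 and -0.05 without exosome replicate 1 and without exosome replicate 2. The 3′ probe set of beta-actin divided by its 5′ probe set, which reflects how intact the RNA was, came to 6.82 and 5.39 with exosomes, against 5.74 and 7.17 with PBS. It was highest on PBS replicate 2 and next highest on exosome replicate 1, while the same ratio for GAPDH lay at 1.35 and 1.34 on the exosome arrays, against 1.32 and 1.33 on the PBS arrays. The part of RNA integrity in these differences was not tested.

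**Figure D4:**
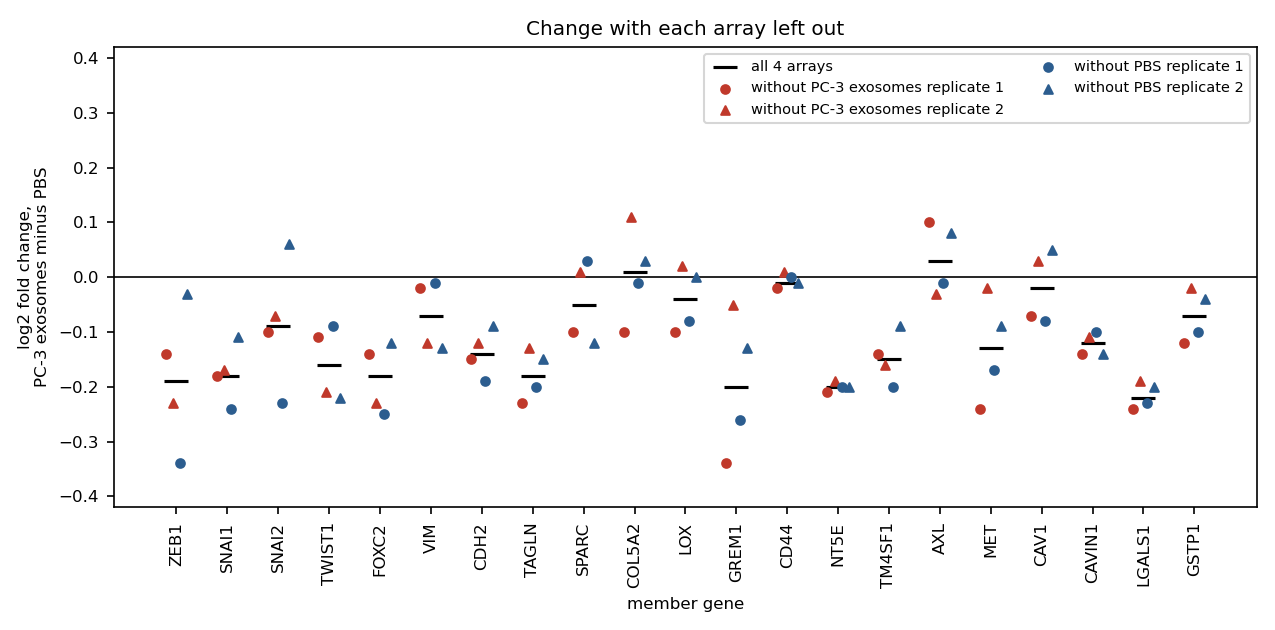
Log2 fold change, PC-3 exosomes minus PBS (y axis), of the 21 genes given with their array values (x axis), from all 4 arrays (bar) and with each array left out (points). SNAI2 reads -0.23 without PBS replicate 1 and 0.06 without PBS replicate 2, while NT5E and LGALS1 stay between -0.24 and -0.19.

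Related genes outside the 39 were taken from 5 lists of matrix, mesenchymal cell, invasion, signalling and epithelial genes, of which 112 of 114 were measured. Of these 112, 0 passed the adjusted threshold, and unadjusted p-values under 0.05 belonged to 15 higher genes and 1 lower gene, beside 5.76% and 5.16% of all genes. Their median log2 fold change was 0.01. In the other matrix genes 0 of 29 passed. FN1, fibronectin, had 4929.9 and 5270.0 with exosomes, against 3749.8 and 4390.2 with PBS. Its exosome arrays were both higher, at 0.33 (SE 0.069, limma adjusted p = 0.0768), and it passed with quantile normalization, among brighter genes alone and as the mean of its probe sets. In the epithelial genes 0 of 20 passed and 15 lay above 0, as did 44.0% of all genes and 51.0% of those at or above the median level, where 19 of the 20 belong. The smallest p among them was that of CLDN7, a tight junction claudin, at 0.22 (adjusted p = 0.0768). CLDN7 passed with quantile normalization and among brighter genes alone, and with each array centred on its median. The smallest p of the remaining 3 lists belonged to ITGAV, an integrin chain, at 0.18 (adjusted p = 0.259), CTSB, a lysosomal protease, at 0.14 (adjusted p = 0.339), and AJUBA, an adaptor of cell junctions and Hippo signalling, at 0.27 (adjusted p = 0.166). Whether the 39 differ from these lists was not tested.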

How the data were processed

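RNA of LNCaP cells, 2 samples with PC-3 exosomes and 2 with PBS, was measured on 4 Affymetrix PrimeView arrays. The values are normalized intensity on a linear scale as deposited by the authors. MAS5 and RMA are named in the submitters' processing notes, without their roles or versions, so the background correction behind the values is unknown. The labels' extraction text names brain tissue, while every sample label names LNCAP. Array number limits the precision: with 2 against 2, an exact permutation test cannot go below 0.333.

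Values were turned into log2(intensity + 1) from the deposited table and fitted with limma 3.58.1 in R 4.3.3 (lmFit, then eBayes with a trend), exosomes minus PBS, with Benjamini-Hochberg adjustment over 18132 genes or 49293 probe sets and a threshold of 0.05. A gene was represented by its single-gene probe set with the highest mean. Probe sets of several genes (1832) or none (2473) named no gene. The fit had 2 residual and 6.99 prior degrees of freedom. On simulated data of 18132 genes it called 12% of changes of 0.25, 74% of 0.5 and 98% of 1 on the log2 scale, with 8 false calls among 150. The simulated noise came from the fit's own variance prior and was independent between arrays, and the changed genes were drawn from all levels. Shifts shared by a whole array and the pull of background were left out, so the rates may be too high for the dim members. Replicate numbers were not shown to pair the samples (r = -0.0396 between the deviations of same-numbered arrays over genes), so the fit has no block. The alternatives were other normalizations, pseudocounts, filters, variance models, gene summaries and control shares, a replicate block, and leaving out each array.

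The members and lists were chosen with earlier results of these data known. Array values are given for the 12 members with the smallest unadjusted p, the 10 brightest and 10 preset genes, together 21, and for others where singled out after their values were seen (CAV2 and IL6). From each related list the gene with the smallest p is named. Promoters come from RefSeq (GRCh38.p14).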

Additional observations from a re-analysis of the deposited data

How the results depend on the processing

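Of 257 alternative values of the 21 genes given by array, 238 kept their direction and their side of the threshold, and 14 of the 21 genes never changed sign. As 12 of the 21 were chosen for the smallest unadjusted p in these data, this stability follows in part from the choice. Among members outside the 21, signs turned in many as single arrays were left out. Examples are ZEB2 (-0.06 to 0.05), COL1A1 (-0.08 to 0.10) and PLAU (-0.07 to 0.24), while TGFBI, UCHL1 and IL6 stayed below 0. With poly-A spike-in centring 1 member gene and 1 member probe set passed, both TWIST1 (-0.30). In that setting 60 genes were higher and 326 lower of all 18132, and 134 and 836 of all 49293 probe sets. At an unadjusted p under 0.05, 5 member genes and 6 member probe sets passed. By that rule 5.76% of all genes were higher and 5.16% lower, and 8.81% of all probe sets passed in either direction. In the related lists 2 genes passed with quantile normalization, where 181 of all 18132 genes were higher and 67 lower. Another setting, rows at or above the median level, gave 2, beside 213 higher and 84 lower of 9066. Array median centring gave 1, beside 179 higher and 36 lower of all genes, and the mean of probe sets gave 1, beside 102 and 26. At an unadjusted p 16 of the lists passed. Of the member probe sets 1 exceeded 90% of the controls, 0 exceeded 99% and 12 exceeded 75%, a share added after seeing the data, and leaving out single arrays gave 0 to 1 at 95%, the 1 being TWIST1 without exosome replicate 1.

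Signs turned as follows. With poly-A spike-in centring COL5A2 was -0.13 and AXL -0.11. With quantile normalization CD44 was 0.02 and CAV1 0.00, and with array median centring CD44 was 0.01. As the mean of probe sets CD44 was 0.03 and AXL -0.02. Leaving out exosome replicate 1 gave COL5A2 -0.10. Leaving out exosome replicate 2 gave SPARC 0.01, LOX 0.02, CD44 0.01, AXL -0.03 and CAV1 0.03. Leaving out PBS replicate 1 gave SPARC 0.03, COL5A2 -0.01 and AXL -0.01, and leaving out PBS replicate 2 gave SNAI2 0.06 and CAV1 0.05. Over the arrays left out, SNAI2 ranged from -0.23 to 0.06, SPARC from -0.12 to 0.03, COL5A2 from -0.10 to 0.11, LOX from -0.10 to 0.02, CD44 from -0.02 to 0.01, AXL from -0.03 to 0.10 and CAV1 from -0.08 to 0.05. The causes were not tested.

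With the replicate number as a block, 0 of the 39 genes passed (smallest adjusted p 0.492), and over all genes 2 were higher and 0 lower, against 127 and 34 without the block. Dim signal and 2 arrays a group limit the precision.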
